A study of Mus musculus with 2 samples.

Results

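Of the 23466 rows of the expression table, 10 carry the symbols of genes that release, build, break down or sense prostaglandins, and all 10 listed symbols were found. They are the phospholipase gene Pla2g4a, the cyclooxygenase genes Ptgs1 and Ptgs2, the synthase genes Ptges, Ptges2 and Ptgis, the breakdown genes Hpgd and Ptgr1, and the receptor genes Ptger2 and Ptger4. They were chosen by name along the pathway. The data are bulk poly(A) RNA-seq of mouse cultures that carry the label primary microglia (macrophages that live in the brain). The iron plus RSL3 culture received 1600 μM iron together with 1 μM RSL3, a compound that inactivates the lipid peroxidase GPX4, to induce ferroptosis, a form of cell death driven by iron and lipid peroxidation. The DMSO culture received the solvent alone. The sources used here state no strain, age or length of treatment. With 1 library per condition there is no replicate spread and no test, so every difference below describes these libraries and not the conditions. Iron and RSL3 were not given singly, and their separate effects cannot be told apart.

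Prostaglandins are short-range lipid signals. Cytosolic phospholipase A2 frees arachidonic acid from membranes, a cyclooxygenase turns it into prostaglandin H2, and terminal synthases make the separate prostaglandins from that common intermediate. Cyclooxygenase-1, from Ptgs1, is made steadily in many tissues, whereas cyclooxygenase-2, from Ptgs2, is induced within hours by cytokines, growth factors and stress. Ptgs2 transcript is also widely used as a marker of ferroptosis. In brain, prostaglandin E2 acts on neurons, vessels and glia, and Ptgs1 is well expressed in microglia.

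Printed here are sequences of the inducible and the steady cyclooxygenase gene, and that of the receptor gene picked because it passed 2-fold. Whether these sequences bear on the levels was not tested. The promoter windows are from RefSeq on GRCm38.p6, reach from 250 bases before the annotated start to 50 bases after it, and run 5′ to 3′ on the strand of the gene. Capitals mark matches to 8 motifs that were searched on both strands. Those were the TATA box (TATAAA), the cAMP response element half-site (TGACGT), the E-box (CACGTG), the C/EBP site (TTGCGCAA), the AP-1 site (TGANTCA), the antioxidant response element core (TGACNNNGC), the heat shock element core (GAANNTTC) and the GC box (GGGCGG).
Ptgs2, chr1:150099781-150100080, plus strand: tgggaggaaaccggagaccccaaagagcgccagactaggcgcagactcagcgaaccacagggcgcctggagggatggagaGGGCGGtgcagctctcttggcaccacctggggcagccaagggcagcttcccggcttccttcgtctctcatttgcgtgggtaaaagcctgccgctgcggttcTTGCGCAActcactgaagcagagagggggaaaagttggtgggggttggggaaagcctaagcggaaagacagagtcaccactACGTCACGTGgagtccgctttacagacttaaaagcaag
Ptgs1, chr2:36230176-36230475, plus strand: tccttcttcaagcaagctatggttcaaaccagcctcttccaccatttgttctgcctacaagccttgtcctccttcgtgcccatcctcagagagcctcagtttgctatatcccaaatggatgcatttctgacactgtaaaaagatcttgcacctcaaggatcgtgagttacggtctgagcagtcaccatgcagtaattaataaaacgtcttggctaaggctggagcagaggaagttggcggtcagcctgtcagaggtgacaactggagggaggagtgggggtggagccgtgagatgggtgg
Ptger4, chr15:5244138-5244437, minus strand: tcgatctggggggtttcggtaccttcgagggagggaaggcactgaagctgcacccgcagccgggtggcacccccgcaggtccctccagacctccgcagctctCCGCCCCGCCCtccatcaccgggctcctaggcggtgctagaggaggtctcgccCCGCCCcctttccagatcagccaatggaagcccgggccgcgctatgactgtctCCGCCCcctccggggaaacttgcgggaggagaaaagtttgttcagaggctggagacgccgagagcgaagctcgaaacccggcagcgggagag

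The Ptgs2 window held a C/EBP site at positions -69 to -62 from the start, an octamer present in 0.183% of all 32851 promoter windows of the same length. A cAMP response element half-site lay 13 to 18 bases after the annotated start and overlapped an E-box at 17 to 22. The half-site is found in 7.51% of all windows and the E-box in 7.15%. A GC box lay at positions -170 to -165. Elements of these kinds are described for the rodent Ptgs2 promoter, in reports that count from another start. The matches in Ptgs2 are therefore not an independent finding, and the shares of all windows are given as a description. The Ptgs1 window held none of the 8 motifs. The Ptger4 window held 4 GC boxes, a motif present in 35.7% of all windows, and none of the other motifs. Of the 9 genes with a window (Ptgis had none), Ptgs2 was the only one with the cAMP response element half-site or the C/EBP site, and none had the AP-1 site or the antioxidant response element core. The RefSeq start used for Ptges lies 26566 bases from its GENCODE gene start. Pla2g4a had 2 RefSeq starts, and only the one nearest its GENCODE start was searched. A match is a description of letters and not of binding.

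**Figure D1:**
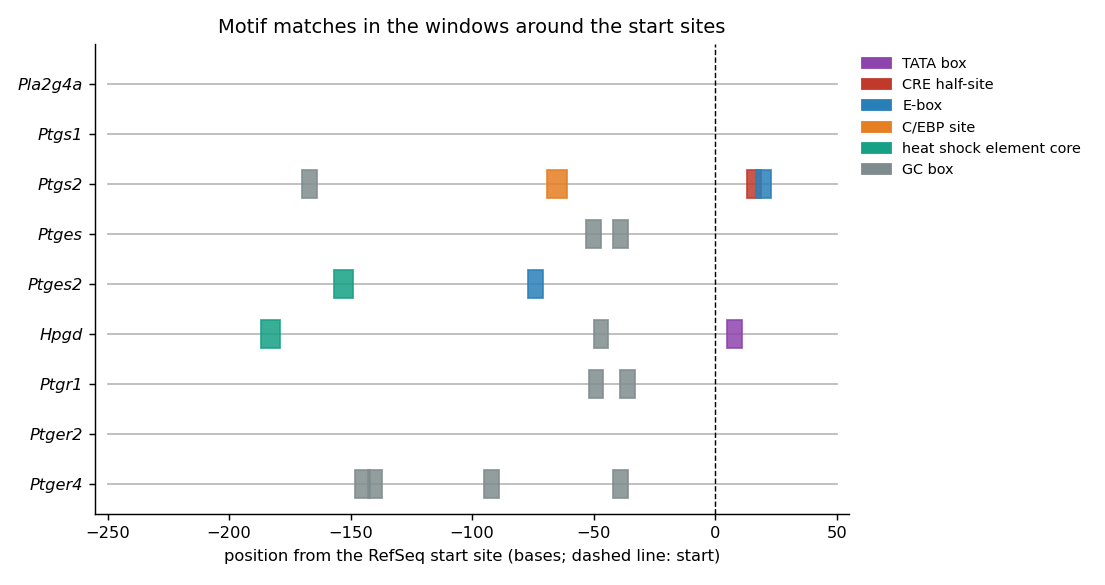
Motif matches in the windows of 9 prostaglandin genes, with the position from the RefSeq start site in bases on the horizontal axis and 1 line per gene. Boxes mark matches on either strand, and the cAMP response element half-site and overlapping E-box of Ptgs2 lie between 13 and 22 bases after the start.

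The transcripts of the cyclooxygenase genes also differ at their far end. AUUUA is the core of AU-rich elements, at which proteins such as ZFP36 bind and speed decay of short-lived messages. In the GENCODE M21 annotation, the longest 3′ untranslated region of Ptgs2 has 2445 bases and holds 14 AUUUA elements. That of Ptgs1 has 921 bases and holds 0. Among 21111 protein-coding genes with an annotated 3′ untranslated region the median was 1 element, and 3.04% had 14 or more. These counts are not adjusted for length, and the median length of these regions was 1085 bases. Of the Ptgs2 elements, 7 start within the first 120 bases after the stop codon. The window of 30 bases with the most of them, 4, lies at bases 12 to 41 after the stop codon and is written as DNA with the elements in capitals.
Ptgs2, AU-rich stretch: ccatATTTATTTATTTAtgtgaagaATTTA
Ptger4 had 5 elements in 1233 bases and Ptger2 had 6 in 1825 bases. Pla2g4a had 4 in 443 bases, whereas Ptges and Ptgis had 0.

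Before the results, the libraries were checked against the labelled cell type. Of 19 microglia markers, 7 in the iron plus RSL3 library and 4 in the DMSO library reached 1 FPKM (a fragment count scaled by transcript length and sequencing depth). Aif1, Cx3cr1, P2ry13, Sall1, Siglech and Fcrls were listed at 0 in both. Those that reached 1 FPKM with iron plus RSL3 were Cd68, Tyrobp, C1qa, C1qb, C1qc, Trem2 and Tmem119. All of these but Tmem119 were higher with iron plus RSL3, among them Cd68 at 10.4 FPKM, against 3.36 FPKM with DMSO. Of the 19, 10 were higher with iron plus RSL3, whereas Tmem119, Csf1r and P2ry12 were lower. The markers summed to 49.7 FPKM with iron plus RSL3 and 68.7 FPKM with DMSO. Of this, Tmem119, which other cells express too, made up 26.1 FPKM with iron plus RSL3 and 59.1 FPKM with DMSO. The other 18 summed to 23.6 FPKM with iron plus RSL3 and 9.56 FPKM with DMSO. In contrast, all 12 fibroblast and mesenchymal markers reached 10 FPKM in both libraries and summed to 5533 FPKM with iron plus RSL3 and 5315 FPKM with DMSO. Mural and smooth muscle markers summed to 1612 FPKM with iron plus RSL3 and 1992 FPKM with DMSO. Each list of astrocyte, neuron, oligodendrocyte or endothelial markers summed to at most 41.5 FPKM in either library. The data thus go against the label, and the source of the transcripts below is not assigned to a cell type. The part of these marker levels in the results was not tested.

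Of the 10 chosen pathway genes, Ptgs2 and Ptger4 were at least 2-fold higher with iron plus RSL3, and none was 2-fold lower. A gene counted as measured at 1 FPKM or more in either library, which 8 of the 10 reached. Of these 8, 2 were higher, 0 lower and 6 within 2-fold. Changes are differences of log2(FPKM + 1), a scale that makes those of weak genes look smaller. Across all 11771 measured genes, the share at least 2-fold higher was 4.25%, and the share at least 2-fold lower was 11.8%. The median log2 change of the 8 genes was 0.46, against -0.38 for all measured genes, and all 8 lay above that overall median. Of the 8, 6 had a log2 change above 0, as had 25.7% of all measured genes. The 10 genes were chosen with earlier results of these data known, so these figures describe the chosen genes and not the whole pathway. The wider lists of related genes given below, without the cAMP response list, were also pooled with them. Of the 75 pooled genes, 37 were measured, of which 2 were at least 2-fold higher, 1 lower and 34 within 2-fold. The median log2 change of these 37 was -0.096, with 16 above 0 and 21 below 0. The summed level of the 10 genes was 1248 FPKM with iron plus RSL3 and 290.1 FPKM with DMSO. Ptgs2 alone made up 78.7% of that sum with iron plus RSL3 and 24.3% with DMSO. In bulk RNA, a change in the share of cells that express a gene and a change per cell cannot be told apart.

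**Figure D2:**
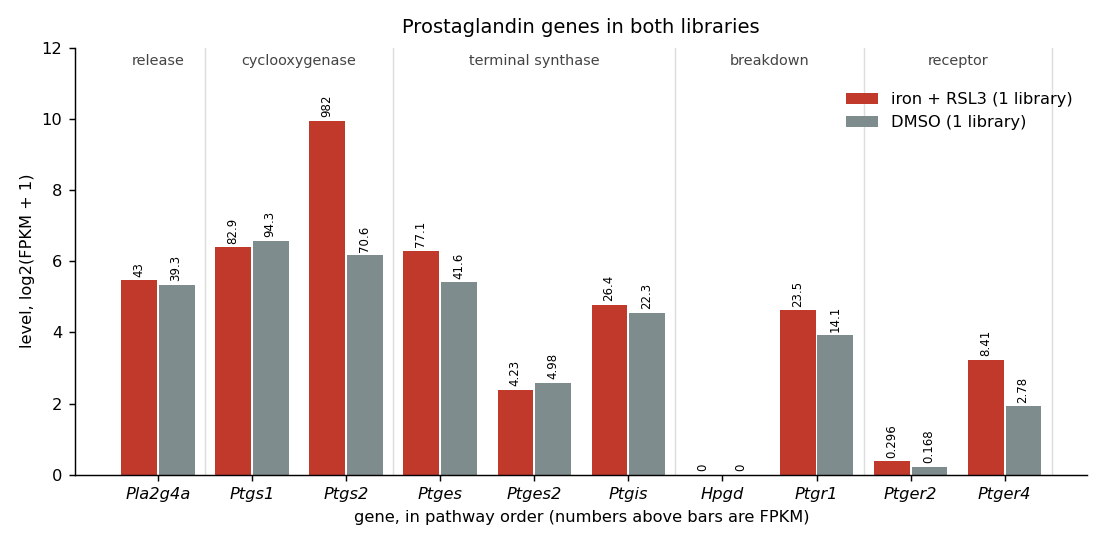
Level of each of the 10 prostaglandin genes as log2(FPKM + 1), in pathway order, with the iron plus RSL3 library in red left of the DMSO library in grey. Bars are single libraries without error, the FPKM is printed above each, and Ptgs2 stands apart at 982 FPKM with iron plus RSL3 and 70.6 FPKM with DMSO.

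At the first step, the transcript for the enzyme that frees arachidonic acid hardly differed. Pla2g4a, cytosolic phospholipase A2 alpha (chromosome 1, 149829618 to 149961290, GRCm38), was at 43.0 FPKM with iron plus RSL3 and 39.3 FPKM with DMSO. Its log2 change was 0.13, which turned to -0.026 with equal FPKM totals. Relative to the median of all measured genes, its change was 0.50 higher, and 80.3% of measured genes had a smaller change. Pla2g4a and Ptgs2 are near neighbours on chromosome 1, yet their changes differed in size.

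The wider list of phospholipases and lipases gave no gene at least 2-fold higher. It holds enzymes that supply arachidonic acid and others that act on related lipids. Of 20 listed, 8 were measured and 12 stayed under 1 FPKM in both libraries, among them 7 at 0 in both. Mgll, monoacylglycerol lipase, which in mouse brain supplies much of the arachidonic acid used for prostaglandins, was at 1.75 FPKM with iron plus RSL3 and 4.79 FPKM with DMSO. It was the 1 gene of the list past 2-fold lower, with a log2 change of -1.08. The call was lost after division by the median ratio of abundant genes, and the gene is under a filter of 5 FPKM. The most abundant by the mean of both libraries was Pla2g7, the secreted enzyme that hydrolyses platelet-activating factor, at 19.4 FPKM with iron plus RSL3 and 16.9 FPKM with DMSO. The list had a median log2 change of -0.48, with 5 of 8 below 0. Daglb, within 2-fold on the log2(FPKM + 1) scale, was 2.03 times lower in FPKM.

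The cyclooxygenase step held the widest contrast of the pathway. Ptgs2, cyclooxygenase-2 (chromosome 1, 150100031 to 150108227, plus strand), was at 982 FPKM with iron plus RSL3 and 70.6 FPKM with DMSO, a ratio of 13.9 and a log2 change of 3.78. No other annotated gene overlaps it. Of all measured genes, 21 had a larger change, which places it at rank 22 of 11771. By level it was the 49th most abundant row with iron plus RSL3 and the 920th with DMSO. It made up 0.229% of the FPKM total with iron plus RSL3 and 0.0183% with DMSO. The log2 change stayed between 3.62 and 4.00 under the pseudocounts and rescalings tried. A change of filter cannot alter it.

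Ptgs1, the steadily expressed paralogue (chromosome 2, 36230426 to 36252272), was at 82.9 FPKM with iron plus RSL3 and 94.3 FPKM with DMSO. The log2 change was -0.18, and it turned to 0.034 after dividing the iron plus RSL3 library by the median ratio of abundant genes. This shift was smaller than the general one, since it lay 0.19 above the median of all measured genes. The order of the paralogues thus differed between the libraries. Ptgs2 stood at 11.8 times the level of Ptgs1 with iron plus RSL3 and at 0.749 times with DMSO. Together they summed to 1065 FPKM with iron plus RSL3 and 165 FPKM with DMSO, of which Ptgs2 was 92.2% with iron plus RSL3 and 42.8% with DMSO.

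**Figure D3:**
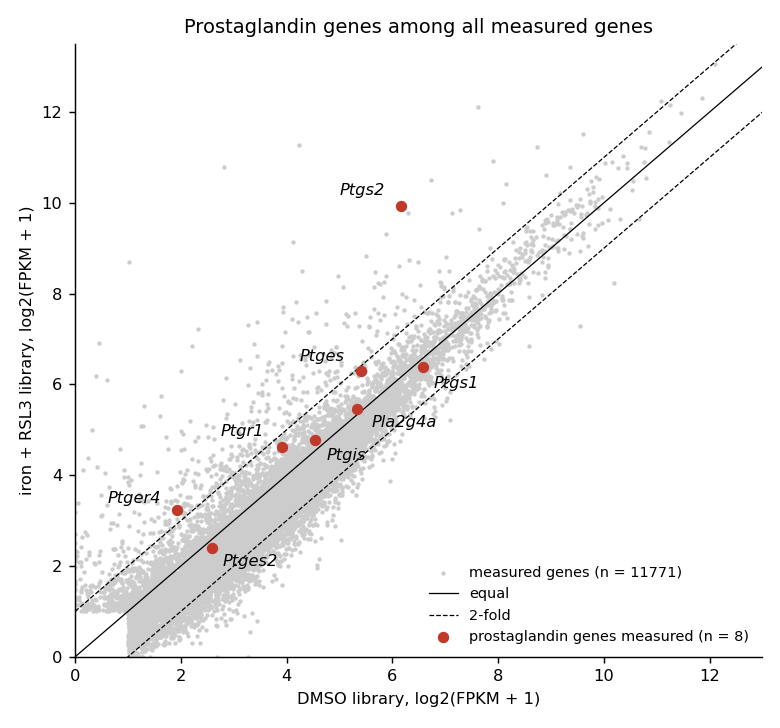
Level of 11771 measured genes in the DMSO library (horizontal) and the iron plus RSL3 library (vertical), both as log2(FPKM + 1), with the 8 measured prostaglandin genes in red. The solid line marks equal levels and the dashed lines 2-fold, and Ptgs2 and Ptger4 lie above the upper dashed line.

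Among the terminal synthases, Ptges came nearest to the 2-fold rule. It encodes microsomal prostaglandin E synthase-1, the inducible enzyme that is commonly co-expressed with cyclooxygenase-2 (chromosome 2, 30889471 to 30929863). The level was 77.1 FPKM with iron plus RSL3 and 41.6 FPKM with DMSO, a ratio of 1.86 and a log2 change of 0.88. Of measured genes, 94.7% had a smaller change. After division by the median ratio of abundant genes the log2 change was 1.09, past 2-fold. Ptges2, the microsomal prostaglandin E synthase-2 gene, which is held to be expressed steadily, was weaker, at 4.23 FPKM with iron plus RSL3 and 4.98 FPKM with DMSO. Its log2 change was -0.19 and remained below 0 under every setting that kept the gene. Ptges stood at 18.2 times the level of Ptges2 with iron plus RSL3 and at 8.35 times with DMSO. Ptges3, a further prostaglandin E synthase gene from the wider list, was chosen after its value was seen. It was at 68.3 FPKM with iron plus RSL3 and 61.2 FPKM with DMSO, so Ptges was not the highest of these genes with DMSO. Ptgis, prostacyclin synthase, an enzyme typical of vessel walls and stromal cells, was at 26.4 FPKM with iron plus RSL3 and 22.3 FPKM with DMSO, a log2 change of 0.23. Ptges stood at 2.92 times the level of Ptgis with iron plus RSL3 and at 1.86 times with DMSO.

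Other terminal synthases did not pass 2-fold in either direction. Of 8 listed, 4 were measured, and their median log2 change was 0.01. The most abundant, Akr1b3, an aldose reductase that in mouse can also form prostaglandin F2 alpha, was at 122.3 FPKM with iron plus RSL3 and 76.9 FPKM with DMSO. The following genes were chosen after their values were seen. Hpgds, the haematopoietic prostaglandin D synthase found in microglia, was at 0.097 FPKM with iron plus RSL3 and 0.015 FPKM with DMSO. Tbxas1, the thromboxane synthase of platelets and macrophages, was listed at 0 with iron plus RSL3 and at 0.090 FPKM with DMSO. Ptgds, the lipocalin-type prostaglandin D synthase of meninges and glia, was listed at 0 in both libraries.

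Of the breakdown genes, the one for the first step was listed at 0 and the one for the second step was measured. Hpgd, 15-hydroxyprostaglandin dehydrogenase, which begins the inactivation of prostaglandin E2, was listed at 0 in both libraries (chromosome 8, 56294585 to 56321043). Ptgr1, prostaglandin reductase 1, acts on the product of that enzyme and also reduces leukotriene B4 metabolites and reactive aldehydes. It was at 23.5 FPKM with iron plus RSL3 and 14.1 FPKM with DMSO, a ratio of 1.67 and a log2 change of 0.70. The log2 change ranged from 0.55 to 0.91 over the settings tried and never reached 2-fold. Of measured genes, 93.2% had a smaller change. All 6 other breakdown and transport genes listed were measured and within 2-fold, with a median log2 change of -0.05. The most abundant by the mean of both libraries was the transporter gene Slco3a1, at 32.3 FPKM with iron plus RSL3 and 32.5 FPKM with DMSO. Cbr3, a carbonyl reductase gene chosen after its value was seen, was likewise at 32.3 FPKM with iron plus RSL3 but at 18.8 FPKM with DMSO. The uptake carrier gene Slco2a1, chosen after its value was seen, was at 5.34 FPKM with iron plus RSL3 and 5.78 FPKM with DMSO.

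Both receptor genes encode prostaglandin E2 receptors that signal through cAMP, and Ptger4 was the stronger of them. Ptger4, the EP4 receptor gene (chromosome 15, 5206661 to 5244187), was at 8.41 FPKM with iron plus RSL3 and 2.78 FPKM with DMSO, a ratio of 3.02 and a log2 change of 1.31. With a pseudocount of 0.1 FPKM the log2 change was 1.56. Low FPKM values multiplied by transcript length lay partly on even steps. If a step is 1 fragment, these Ptger4 levels stand for about 579 fragments with iron plus RSL3 and 176 with DMSO on the longest transcript. The exact 95% binomial interval of the ratio is then 2.55 to 3.60 and covers counting error only. On the other strand, Ptger4 shares 1015 exonic bases with the pseudogene Gm15937 and 82 with Ttc33, and the libraries are not stated to keep strand. Ttc33 was at 7.57 FPKM with iron plus RSL3 and 12.6 FPKM with DMSO. The part of these overlaps in the Ptger4 values was not tested.

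Ptger2, the EP2 receptor gene (chromosome 14, 44988195 to 45003820), did not reach 1 FPKM in either library. It was at 0.30 FPKM with iron plus RSL3 and 0.17 FPKM with DMSO. On the same assumption this is about 20 fragments with iron plus RSL3 and 10 with DMSO, with a 95% interval of the ratio from 0.822 to 4.40. That interval spans equal levels, covers counting error only and would be narrower with the shorter steps given below. Ptger4 stood at 28.4 times the level of Ptger2 with iron plus RSL3 and at 16.6 times with DMSO. Of 8 other prostanoid receptors, 3 were measured and all were within 2-fold. The most abundant by the mean of both libraries was Tbxa2r, the thromboxane receptor gene, at 2.82 FPKM with iron plus RSL3 and 5.73 FPKM with DMSO. Its log2 change of (FPKM + 1) was -0.82, and it was 2.03 times lower in FPKM. Ptgir, the prostacyclin receptor gene, was at 2.00 FPKM with iron plus RSL3 and 2.05 FPKM with DMSO. Pparg, a nuclear receptor gene, was at 2.88 FPKM with iron plus RSL3 and 2.47 FPKM with DMSO. These last 2 genes were chosen after their values were seen.

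The order of the levels differed between the libraries in 2 places. With iron plus RSL3 it ran Ptgs2, Ptgs1, Ptges, Pla2g4a, Ptgis, Ptgr1, Ptger4, Ptges2, Ptger2 and Hpgd, from the highest down. With DMSO it ran Ptgs1, Ptgs2, Ptges, Pla2g4a, Ptgis, Ptgr1, Ptges2, Ptger4, Ptger2 and Hpgd. Thus Ptgs2 passed Ptgs1 and Ptger4 passed Ptges2, and the other genes kept their places. Without replicates, it cannot be said which neighbours in these orders differ beyond the spread of cultures.

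In the lists of the lipoxygenase and leukotriene branch, epoxide hydrolases and annexin regulators, all measured genes were within 2-fold on the log2(FPKM + 1) scale. These lists do not cover every enzyme that uses arachidonic acid. Of 19 genes of the lipoxygenase and leukotriene branch, 15 stayed under 1 FPKM in both libraries. The 4 measured ones were within 2-fold on that scale, all with a log2 change below 0 and a median of -0.33. Of these, Mgst2 was 2.54 times lower in FPKM, at 0.54 FPKM with iron plus RSL3 and 1.38 FPKM with DMSO. The most abundant, Lta4h, leukotriene A4 hydrolase, was at 27.3 FPKM with iron plus RSL3 and 32.6 FPKM with DMSO. Alox15, the lipoxygenase often discussed in ferroptosis and chosen here after its value was seen, was listed at 0 in both. Of the epoxide hydrolases, Ephx1 was at 151.7 FPKM with iron plus RSL3 and 151.4 FPKM with DMSO. Ephx2, the soluble enzyme, was weaker, at 1.64 FPKM with iron plus RSL3 and 4.08 FPKM with DMSO, a log2 change of (FPKM + 1) of -0.94, just within 2-fold on that scale, and 2.49 times lower in FPKM. Anxa1, annexin A1, which restrains phospholipase A2 and was the most abundant of both listed annexin-related genes, was at 729.6 FPKM with iron plus RSL3 and 945 FPKM with DMSO. Over the 65 genes of these 7 wider lists, 29 were measured. None (0) passed 2-fold upward, against 4.25% of all measured genes, and 1, Mgll, passed it downward, against 11.8%. With so few genes, these counts do not set the lists apart. Their median log2 change was -0.23, against -0.38 for all measured genes.

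**Figure D4:**
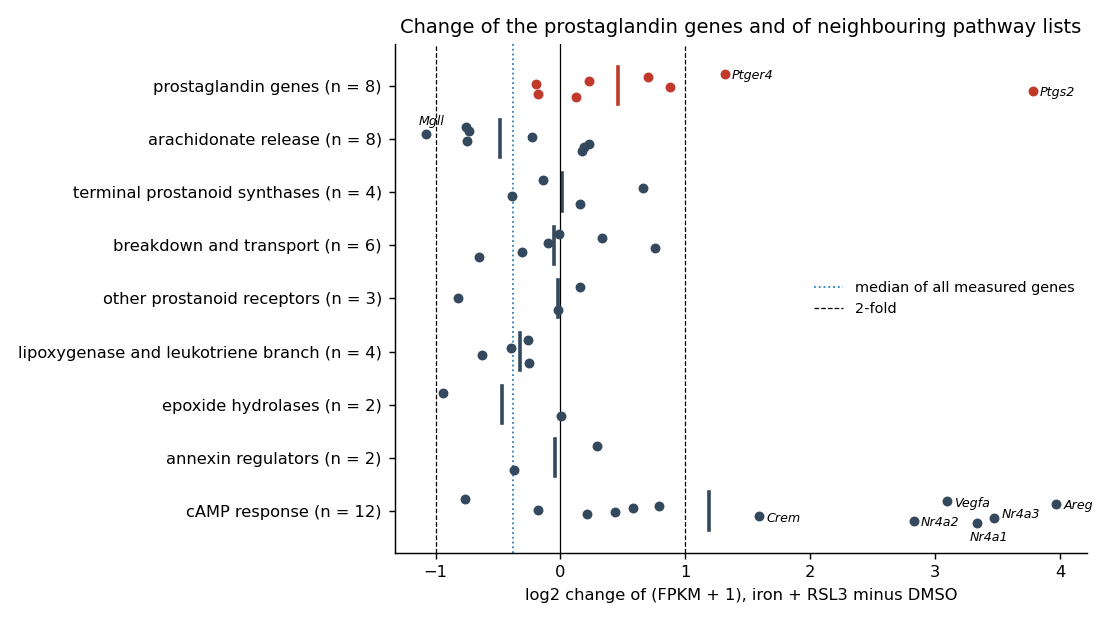
Log2 change of (FPKM + 1), iron plus RSL3 minus DMSO, for each measured gene, with the prostaglandin genes in red and the other lists in blue-grey. Thick ticks are list medians, dashed lines mark 2-fold and the dotted line is the median of all measured genes, -0.38. Ptgs2 and Ptger4 are past 2-fold, and in the 7 other pathway lists Mgll alone is.

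The 5 genes most like Ptgs2 in level over the 2 libraries are named next. Likeness was the distance in log2(FPKM + 1), and with 2 libraries it is a description only. Sat1, a spermidine acetyltransferase gene, lay closest at a distance of 0.21, with 878 FPKM with iron plus RSL3 and 77.3 FPKM with DMSO. Ier3, an immediate early gene, followed at a distance of 0.68, and Hspb1, a small heat shock protein gene, at 0.81. The metallothionein genes Mt1 and Mt2 were next, at 0.99 and 1.13.

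**Figure D5:**
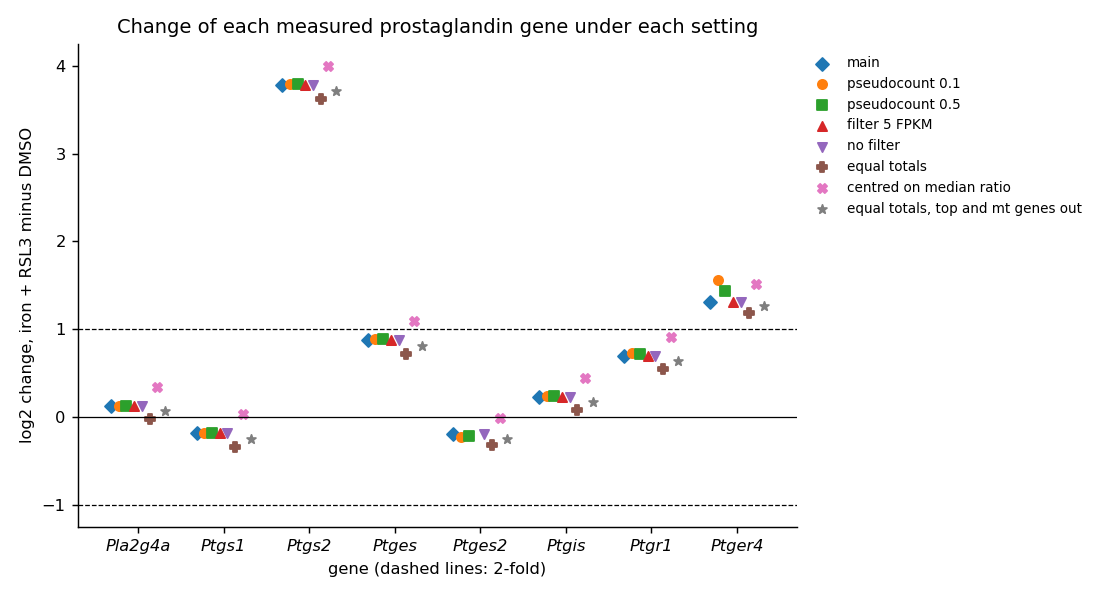
Log2 change of each measured prostaglandin gene, iron plus RSL3 minus DMSO, under the reported processing and 7 alternatives, 1 symbol each. Ptgs2 and Ptger4 stay above the 2-fold line throughout, Ptges crosses it once, and Pla2g4a and Ptgs1 each change sign once. A change of filter cannot move a value.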

How the data were processed

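The authors deposited 1 table of FPKM values, with 2 libraries. Per the submitters' processing notes, the build was GRCm38 and the tools edgeR, DESeq2, StringTie and HISAT2, whose roles and versions are not given there, nor are annotation release and filters. Per the labels' protocols, RNA was extracted with TRIzol, captured on oligo(dT) beads, fragmented and primed with random hexamers, and no strand-marking step is named. Groups came from sample titles and columns from library names. The list of microglia markers held 1 further gene that is not reported here. The genes and lists were chosen with earlier results of these data known. All 10 prostaglandin genes are named whatever their values, as are, from each wider list, members past 2-fold and the most abundant one by the mean of both libraries.

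FPKM totals were 429250 with iron plus RSL3 and 385141 with DMSO, and rows at 1 FPKM or more numbered 10884 with iron plus RSL3 and 11481 with DMSO. Changes are log2(FPKM + 1), iron plus RSL3 minus DMSO, without any test. Low values of genes with 1 transcript, multiplied by length, clustered at steps of 54.7 with iron plus RSL3 and 59.5 with DMSO, so the iron plus RSL3 library is about 1.09 times as deep. Only 37.0% of low values with iron plus RSL3 and 31.7% with DMSO lay within 0.05 of a whole step (10% if spread evenly), so whole fragments were not recovered. A wider search preferred steps of 27.6 with iron plus RSL3 and 30.1 with DMSO, which would mean more fragments and narrower intervals. Coordinates and transcripts are from GENCODE M21, promoters from RefSeq. The 2-fold rule and the step search were tested on simulated data made of whole fragments, unlike the data here. The fragment intervals, motif search and AUUUA counts were not tested in this way. Python 3.11.15, pandas 2.3.3 and scipy 1.17.1 were used.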

Additional observations from a re-analysis of the deposited data

How the results depend on the processing

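With 1 library per condition, nothing here has a replicate check. No paired analysis was possible because each condition has 1 library. FPKM is relative to each library's total: over all measured genes the median log2 change was -0.38, equal totals moved it to -0.51, and division by the median ratio of abundant genes moved it to -0.19. Under each of the pseudocounts and rescalings tried, Ptgs2 and Ptger4 were past 2-fold, and no prostaglandin gene was 2-fold lower. The changes of filter and the 1.5-fold rule, also among the 8 alternatives, cannot alter the log2 change of a gene. Division by the median ratio added Ptges, for 3 genes higher, and a 1.5-fold rule gave 4 genes higher.

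The median log2 change of the prostaglandin genes was 0.70 among those at 5 FPKM or more, 0.23 without a filter, 0.32 with equal totals and 0.68 after division by the median ratio. Sign changes were those of Pla2g4a, -0.026 with equal totals, and of Ptgs1, 0.034 after division by the median ratio. The wider lists had 3 genes at least 2-fold lower with a pseudocount of 0.1 FPKM, and 2 with one of 0.5 FPKM. They had 0 at 5 FPKM or more, 2 with equal totals, 0 after division by the median ratio and 8 by the 1.5-fold rule, which also gave 2 higher. Their median was -0.022 without a filter, -0.37 with equal totals and -0.031 after division. Over all measured genes, 2379 were at least 2-fold lower with a pseudocount of 0.1 FPKM and 803 after division by the median ratio. The 1.5-fold rule gave 975 higher and 4089 lower. The cause of these differences was not tested.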

Other observations

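Prostaglandin E2 receptors EP2 and EP4 raise cAMP, so genes linked to cAMP and its factor CREB were listed as well. Of 14 symbols, 13 were in the table and 12 were measured. Of these, 6 were at least 2-fold higher with iron plus RSL3, 0 lower and 6 within 2-fold, with a median log2 change of 1.19, against -0.38 for all measured genes. Of all measured genes, 4.25% were that much higher and 11.8% that much lower. Areg, a growth factor gene, was at 16.2 FPKM with iron plus RSL3 and 0.10 FPKM with DMSO. Nr4a3, an orphan nuclear receptor gene, was at 15.5 FPKM with iron plus RSL3 and 0.49 FPKM with DMSO. Its relative Nr4a1 was at 172.1 FPKM with iron plus RSL3 and 16.1 FPKM with DMSO. Vegfa, the vascular growth factor gene, was at 228.9 FPKM with iron plus RSL3 and 25.9 FPKM with DMSO. The other 2 genes past 2-fold were Nr4a2 and Crem. In contrast Sik1, a kinase gene of the same list chosen after its value was seen, was at 5.20 FPKM with iron plus RSL3 and 4.34 FPKM with DMSO. Crtc1, chosen likewise and within 2-fold on the log2(FPKM + 1) scale, was 2.04 times lower in FPKM. The list was chosen with earlier results of these data known, so its counts beside the shares of all measured genes are a description only. Many of these genes also respond to other stress signals, and cAMP itself was not measured here. A link between these genes and the receptor genes was not tested.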
